A study of Mus musculus with 4 samples.

Results

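The 8 genes described here encode enzymes and modifiers of the SUMO pathway: the modifiers Sumo2 and Sumo3, the activating enzyme subunits Sae1 and Uba2, the proteases Senp1 and Senp2, and the ligases Pias1 and Pias4. They were taken by name, 8 of 21887 protein-coding genes with a RefSeq span on assembled mouse chromosomes (GRCm38.p6, the coordinates of mm10), and all 8 were found. Accessible chromatin had been mapped by ATAC-seq, an assay that cuts exposed DNA with a transposase and sequences the fragments. The cells were 10T1/2, fibroblasts derived from mouse embryos and kept as a line. One group was wild type for Ranbp2 (2 libraries) and the other carried a CRISPR-Cas9 knockout of Ranbp2 (2 libraries). The knockout cells descended from 1 sorted cell and are therefore 1 clone. The labels do not say whether the wild-type cells were cloned, nor that replicates were separate cultures. Each library started from 50000 cells and was read with 75 bp paired ends.

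SUMO proteins are small relatives of ubiquitin that are joined to lysines of other proteins, many of them nuclear. The Sae1-Uba2 dimer activates the modifier, and ligases such as the PIAS proteins help to pass it to a target. SENP proteases trim the SUMO precursors and remove SUMO from targets. Ranbp2, the gene deleted here, is a nuclear pore protein that binds SUMO-modified Rangap1 and can act as a SUMO ligase.

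The sequences below are the 250 bases upstream of an annotated start for 4 genes, from RefSeq promoters of GRCm38.p6. Sumo3 and Uba2 are shown because their start sites ranked in opposite directions in the genotypes, Sumo2 as the close relative of Sumo3, and Senp2 for the highest-ranked gene-end site of the 8. Each is written 5′ to 3′ on the strand of the gene and ends at the base before the start. Capitals mark exact matches, on either strand, to the motifs named after them. The promoter table matched 6 of the 8 genes, not Sae1 and Pias4.
Sumo3 (chr10:77606348-77606597, plus strand): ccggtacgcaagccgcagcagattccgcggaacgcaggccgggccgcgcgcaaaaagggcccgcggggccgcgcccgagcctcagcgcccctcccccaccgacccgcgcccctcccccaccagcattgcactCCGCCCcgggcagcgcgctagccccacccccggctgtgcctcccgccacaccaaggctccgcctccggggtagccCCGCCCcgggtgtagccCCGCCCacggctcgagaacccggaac
Uba2 (chr7:34168530-34168779, minus strand): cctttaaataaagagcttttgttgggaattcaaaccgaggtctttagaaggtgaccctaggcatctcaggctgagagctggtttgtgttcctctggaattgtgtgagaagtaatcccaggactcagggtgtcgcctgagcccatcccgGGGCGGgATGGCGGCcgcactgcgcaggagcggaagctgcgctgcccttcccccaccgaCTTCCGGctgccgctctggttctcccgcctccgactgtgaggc
Sumo2 (chr11:115536231-115536480, minus strand): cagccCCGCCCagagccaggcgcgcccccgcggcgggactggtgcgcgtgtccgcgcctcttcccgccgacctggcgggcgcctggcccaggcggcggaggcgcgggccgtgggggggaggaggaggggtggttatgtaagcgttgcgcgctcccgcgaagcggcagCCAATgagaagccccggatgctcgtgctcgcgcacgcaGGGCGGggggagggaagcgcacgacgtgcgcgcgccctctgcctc
Senp2 (chr16:22009234-22009483, plus strand): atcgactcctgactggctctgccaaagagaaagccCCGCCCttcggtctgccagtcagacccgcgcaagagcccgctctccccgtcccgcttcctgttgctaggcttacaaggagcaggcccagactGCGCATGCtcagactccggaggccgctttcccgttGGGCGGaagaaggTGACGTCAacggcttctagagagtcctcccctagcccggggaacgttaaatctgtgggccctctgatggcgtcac

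Most of these promoters were rich in G, C and CpG. For genes with several listed starts, the start nearest the summit was used. Over the 6 genes matched, the median GC content of the 250 bases was 66.2% and the median number of CpG was 23.5. At starts not used, the GC content was 64.8% and 55.6% for Sumo3 and 49.6% for Senp1. The medians were 61.6% and 18 over 5128 promoters that overlapped a region open in all 4 libraries, and 55.6% and 10 over all 21263 promoters of protein-coding genes. A GC box, GGGCGG, was present in 5 of the 6, all but Senp1, against 68.0% of the open and 42.6% of all promoters. The Sumo3 promoter shown carried 3 of them (1 and 0 at its other listed starts) and that of Pias1 carried 5. An ETS-type match, CCGGAAG, was present for Uba2 and Senp1 (19.8% of open promoters), a CCAAT box for Sumo2 (46.7%), and a YY1-type match, ATGGCGGC, for Uba2 (2.79%). The Senp2 promoter held an NRF1-type match, GCATGCGC (5.91% of open promoters), and a cyclic AMP response element, TGACGTCA (3.92%). The E-box CACGTG, the AP-1 motif TGANTCA and the TATA box TATAAA had no match in these 6 windows. No matches of different motifs overlapped in the 4 sequences shown, and the GC box and the YY1-type match of Uba2 lie close together. A match describes letters and is not evidence of binding.

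A site is a region formed by overlapping peaks of the 4 lists, 39137 in all. A gene-end site has a peak summit within 1 kb of either end of a gene's span. For each site and library the text gives the fold, which is the authors' enrichment of the summit over the local background of that library. It also gives the list percentile, the share of that library's peaks with a lower −log10 q. List percentiles depend on list length. The wild-type lists held 33721 and 18511 peaks and the knockout lists 13877 and 24292, and the 10977 regions present in all 4 lists had median list percentiles of 83.1 and 69.0 in wild type and 59.0 and 76.8 in knockout (replicates 1 and 2 here and below). Therefore a second scale, the shared percentile, ranks a site only among those 10977 regions and has the same median in every library. The files hold no read counts, so depth is unknown. Exact permutation tests of 2 against 2 libraries cannot give a p below 0.3333 (two-sided), and no single site can pass a threshold of 0.05.

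Of the 8 genes, 7 had a gene-end site in all 4 libraries, and Sae1 had one in 3. The same was true of 26.5% of all protein-coding genes, 5802 genes, where a site shared by neighbouring genes counts for each of them. The sites were 178 to 450 bp wide. For the 6 genes with annotated starts the summits lay between 147 bp upstream and 33 bp downstream of a listed start, so these sites are at promoters. On the list scale 2 of the 7 sites, those of Sumo3 and Pias4, were lower in both knockout than in both wild-type libraries, against 27.4% of those 5802 genes. That of Uba2 was higher in both, against 1.53%. On the shared scale the counts were again 2 and 1, of the same genes, against 27.6% lower and 14.6% higher among the 5802 genes. The median knockout minus wild-type difference over the 7 sites was -6.02 list percentile points, against -5.87 over the 5802 genes. It was 0.48 points on the shared scale, against -2.00. The 7 sites as a group thus stood near the background, and the values of single genes differed widely.

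**Figure D1:**
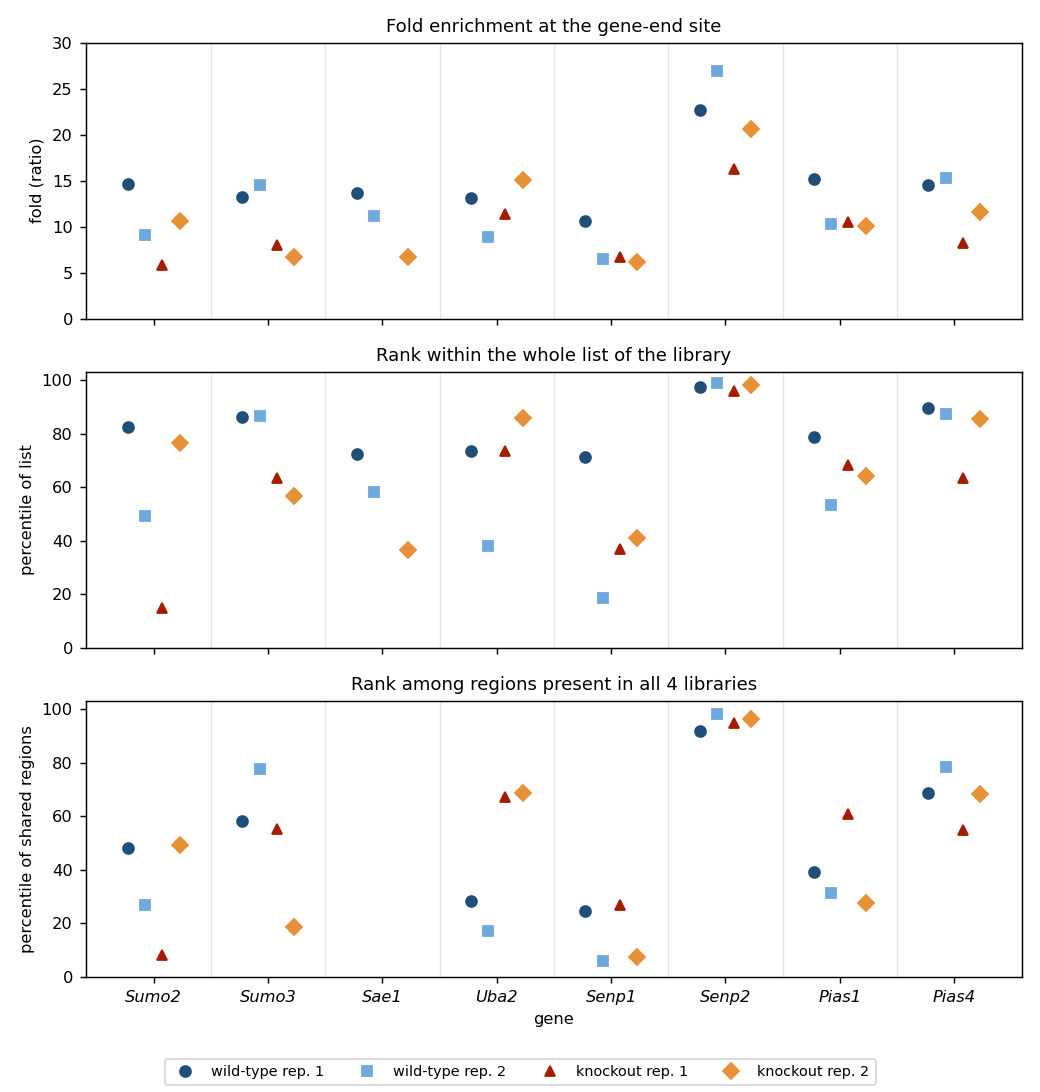
Gene-end sites of the 8 genes in each library (circles and squares, wild type; triangles and diamonds, knockout), as fold enrichment, list percentile and shared percentile. Sumo3 and Pias4 lie lower and Uba2 higher in both knockout libraries on both rank scales, while the Sae1 site has no peak in knockout replicate 1 and no shared percentile.

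Among the modifiers, the Sumo3 start site ranked lower in the knockout and the Sumo2 site varied too widely to be placed. Sumo3 (gene 20610, chromosome 10, 77606097-77618331) encodes a SUMO that forms chains, as does Sumo2. Its site (77606482-77606687) overlapped a listed start 501 bp inside the span, and its fold was 13.2 and 14.5 in wild type and 8.03 and 6.72 in knockout. The folds of the genotypes did not overlap, as was also the case for Pias4 and Senp2. Among the other pathway genes described below, Senp5, Uspl1, Desi1, Rangap1, Topors and Daxx also had both knockout folds below both wild-type folds. The remaining ones with a gene-end site in all 4 libraries did not. Folds of separately called lists are not comparable, and the share of all genes with such folds was not counted. The median fold of a list was 7.72 and 8.92 in wild type and 7.28 and 6.78 in knockout. The list percentiles of Sumo3 did not overlap either, at 86.1 and 86.7 in wild type against 63.4 and 56.6 in knockout. Shared percentiles were 58.2 and 77.8 in wild type (mean 68.0 ± 13.9, SD, n = 2) and 55.1 and 18.8 in knockout (36.9 ± 25.7), a difference of -31.1 points (exact permutation p = 0.3333). All 4 pairs of a knockout with a wild-type library were negative, from -59.0 to -3.11 points, so the size of the difference rests largely on knockout replicate 2. A second, weak Sumo3 gene-end site (77605445-77605538) had a peak in wild-type replicate 1 only, with a fold of 4.75.

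Sumo2 (gene 170930, chromosome 11, 115523109-115536230), the more abundant relative in most cells, had its site at 115536173-115536516. The fold was 14.6 and 9.12 in wild type and 5.79 and 10.7 in knockout. List percentiles were 82.4 and 49.4 in wild type and 14.97 and 76.4 in knockout, so knockout replicate 1 was the lowest and the other 3 libraries overlapped. The shared difference of -8.75 points was smaller than the SD of 29.1 points between the knockout libraries.

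Of the subunits of the activating enzyme, Uba2 had a site that ranked higher in both knockout libraries, and Sae1 had a site in 3 libraries, which gives it no call. Uba2 (gene 50995, chromosome 7, 34140697-34168590) carries the catalytic cysteine of the dimer. Its site (34168482-34168659) had shared percentiles of 28.4 and 17.3 in wild type (22.8 ± 7.84, SD, n = 2) and 67.2 and 68.8 in knockout (68.0 ± 1.13). The difference was 45.2 points (exact permutation p = 0.3333), and the 4 pairs ran from 38.9 to 51.6 points. Of the 5802 genes with such a site, 6 had a larger positive difference. List percentiles were 73.4 and 37.9 in wild type and 73.6 and 85.7 in knockout, so on that scale wild-type replicate 1 and knockout replicate 1 were 0.18 points apart, and with peaks of −log10 q of at least 5 only, they overlapped. The folds also overlapped, at 13.1 and 8.92 in wild type and 11.4 and 15.1 in knockout. With every list reduced to 13877 peaks, the percentiles were 35.4 and 17.1 in wild type against 73.6 and 75.0 in knockout.

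Sae1 (gene 56459, chromosome 7, 16320236-16387896), the other subunit, had a site at 16387692-16388004 with folds of 13.7 and 11.2 in wild type and 6.67 in knockout replicate 2. No peak was listed there in knockout replicate 1, the shortest list. The list percentiles were 72.2, 58.3 and 36.6, in the same order. With equal list lengths the site was present in both wild-type libraries, at percentiles of 32.4 and 44.3, and in neither knockout library. The share of all genes with that pattern at equal list lengths is not given, so it is not read as a loss in the knockout. The difference between the sites of Sae1 and Uba2 was not tested.

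Both ligases had an open gene-end site, and that of Pias4 ranked lower in the knockout. Pias4 (gene 59004, chromosome 10, 81153961-81167720) had its site at 81167693-81168000, with folds of 14.5 and 15.3 in wild type and 8.27 and 11.6 in knockout. Its list percentiles were 89.7 and 87.1 against 63.3 and 85.6, and its shared percentiles 68.8 and 78.5 against 55.0 and 68.5. The shared difference was -11.9 points (exact permutation p = 0.3333, n = 2 each), with pairs from -23.5 to -0.29. The nearest libraries differed by less than 1 point on the shared scale. Without knockout replicate 1 the list difference shrank from -14.0 to -2.82 points. Pias1 (gene 56469, chromosome 9, 62878366-62980879), a ligase that also regulates transcription factors, had its site at 62980846-62981099. Its folds were 15.2 and 10.3 in wild type and 10.6 and 10.1 in knockout, and its list percentiles of 78.6 and 53.5 enclosed the knockout values of 68.2 and 64.0. The 4 summits lay within 1 bp of each other, 53 or 54 bp upstream of the start.

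Senp2 had the highest-ranked gene-end site of the 8 genes and Senp1 one of the lowest-ranked, and neither separated the genotypes by rank. Senp2 (gene 75826, chromosome 16, 22009432-22049269), a protease also found at the nuclear pore, had its site at 22009173-22009516. Its folds were 22.6 and 26.9 in wild type and 16.3 and 20.6 in knockout. Although the folds did not overlap, the list percentiles did, at 97.4 and 98.8 in wild type and 95.8 and 98.2 in knockout, and the shared difference was 0.48 points. Summits were at 146 or 147 bp upstream of the start in all 4 libraries. Senp1 (gene 223870, chromosome 15, 98038744-98093569), the protease that matures and removes SUMO, had its site at 98093241-98093690, where a gene end of Pfkm, a glycolytic enzyme gene, also lies. Its folds were 10.6 and 6.44 in wild type and 6.74 and 6.22 in knockout. The shared percentiles of 24.6 and 6.11 in wild type and 26.8 and 7.43 in knockout overlapped, and with equal list lengths only the replicate 1 libraries of each genotype kept the site.

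Chromosomes differed in the median difference of their gene-end sites, and each gene was set against the genes of its own chromosome. On chromosome 10, home of Sumo3 and Pias4, the median shared difference of 292 genes with a gene-end site was -6.38 points and 49.7% were lower in both knockout libraries. Pias4, at -11.9, lay inside the middle range of that chromosome (quartiles -12.6 and -1.84). Sumo3 lay below it by 24.7 points from the median, and 3.42% of the chromosome's genes were lower. On chromosome 7 the median of 450 genes was -1.16 points and 99.8% lay below Uba2. Pias1, at 8.99 points, was above 93.2% of 294 genes on chromosome 9, where the median was -7.13, but its 4 pairs ran from -11.4 to 29.4 points. Senp1 (1.73 points) stood above 86.2% of the genes of chromosome 15 (median -4.30). Sumo2 and Senp2 lay within the quartiles of chromosomes 11 and 16. Ranbp2, the edited gene, is also on chromosome 10, and the knockout cells are 1 clone. Whether the edit, the clone or the shift of chromosome 10 has a part in the values of Sumo3 and Pias4 was not tested. On percentiles taken within the chromosome, Sumo3 and Uba2 kept their directions without overlap. Pias4 overlapped there, but its mean difference was as large, at -14.2 points against -14.0 over the whole list.

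**Figure D2:**
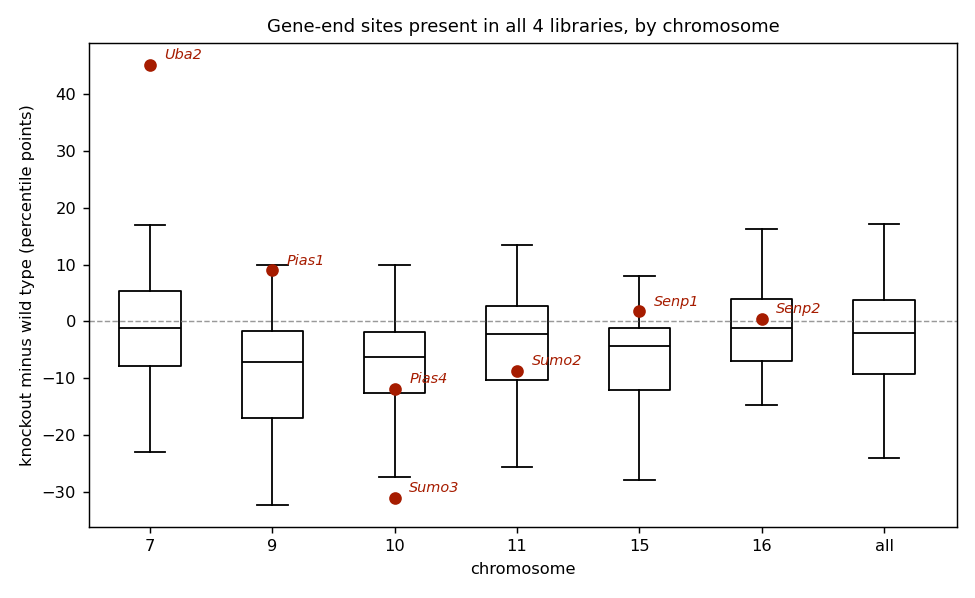
Difference in shared percentile, knockout mean minus wild-type mean, of gene-end sites present in all 4 libraries, by chromosome. Boxes give quartiles with the median, whiskers the 5th and 95th percentiles over genes, and red points the 7 genes; Uba2 lies at 45.2 and Sumo3 at -31.1 points, both beyond the whiskers of their chromosomes.

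Beyond their own ends the genes had 60 distal sites, with a summit inside the span or within 50 kb of it. Of these, 20 lay at the end of another protein-coding gene and 40 away from all gene ends, 9 of them inside the span of the gene itself. Sae1 had 18 distal sites in a window of 167.7 kb, Pias4 10, Senp1 8, Sumo3 and Pias1 6 each, Sumo2 5, Uba2 4 and Senp2 3. Sumo2 had none away from gene ends. Next to the 50 kb limit, the outermost site kept lay 49.4 kb from Pias1 (list percentiles 96.2 and 86.2 in wild type, 83.6 and 89.7 in knockout), and the first one beyond it lay 50.7 kb from Pias1, with a peak in wild-type replicate 1 alone (39.9).

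Presence of distal sites followed the lengths of the lists. Of the 60, 54 and 37 had a peak in wild-type and 24 and 41 in knockout libraries, and 23 had one in all 4. By class these were 13 of 40 away from gene ends, against 20.0% of all such regions, and 10 of 20 at ends of other genes, against 50.9%. Both wild-type libraries but no knockout library had a peak at 3 of the 40 (background 7.13%) and 2 of the 20 (4.80%). The reverse pattern, peaks in both knockout libraries alone, was seen at 0 distal sites, with backgrounds of 1.24% and 0.138%. Another 3 distal sites were shared by the longest list of each genotype only (wild-type replicate 1, knockout replicate 2), and 1 by replicate 1 of both. All 10 sites, distal or at the gene's own end, that were missing from 1 library only were missing from knockout replicate 1.

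Both wild-type libraries alone had peaks at 5 distal sites, with folds from 4.38 to 10.8. One (98108385-98108561) lay inside Pfkm, 14.9 kb from Senp1, with folds of 10.8 and 7.90. Another (77570392-77570577) lay 35.6 kb from Sumo3 and 4.75 kb from Itgb2, an integrin gene (folds 7.17 and 5.25), and one (34131234-34131392) inside Wtip, 9.39 kb from Uba2 (8.28 and 6.77). The remaining pair lay at an end of Eef2, the translation elongation factor, 8.33 and 8.80 kb from Pias4, with folds of 5.06 and 4.38 and of 5.58 and 5.82. The median fold of a peak was 7.72 and 8.92 in the wild-type lists, so 3 of these 5 sites had both folds below it.

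**Figure D3:**
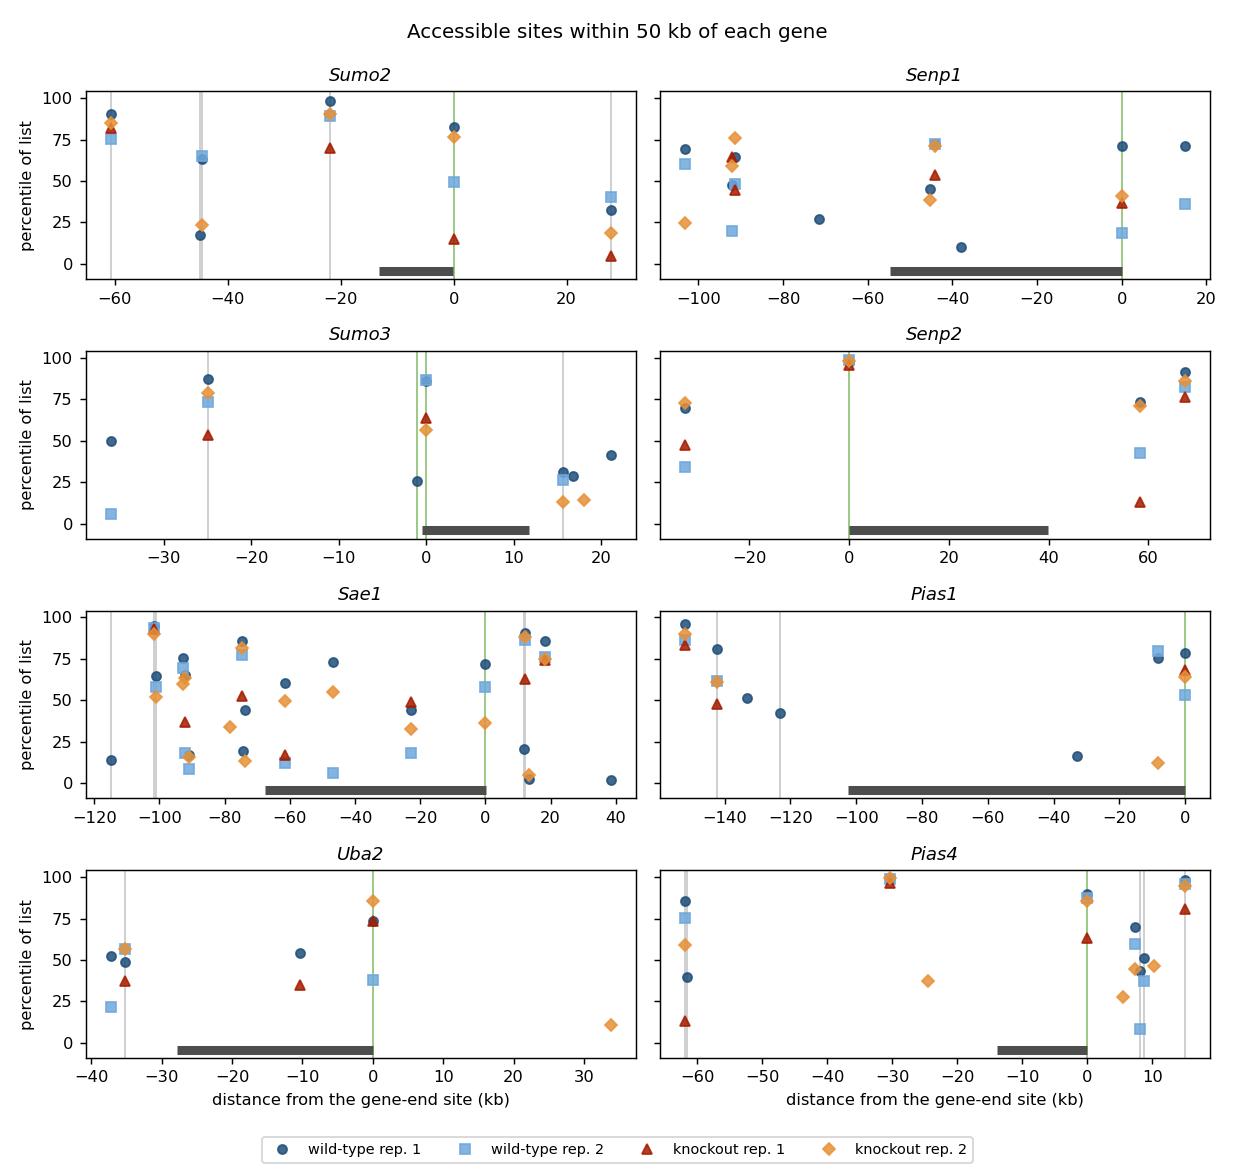
List percentile of every site against its distance from the gene-end site along the chromosome, one panel per gene, with a scale of its own on each distance axis. Symbols mark the libraries and grey bars the gene span. Green lines mark sites at the gene's own ends and grey lines sites at ends of other genes. The Sae1 window holds 19 sites and the Senp2 window 4.

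Away from gene ends, the best-ranked sites of Pias1, Pias4, Sae1, Senp1 and Senp2 were open in all 4 libraries. The strongest lay 16.5 kb from Pias4 inside Zbtb7a, a zinc-finger repressor gene (81137295-81137676), at list percentiles from 96.5 to 99.2 over the 4 libraries. The outermost Pias1 site described above came next, followed by one 27.5 kb from Senp2 inside Igf2bp2, an RNA-binding protein gene (91.2 and 82.1 against 76.5 and 86.1), and one 18.3 kb from Sae1 inside Zc3h4 (85.5 and 76.2 against 74.5 and 75.0). Within Senp1 the best site (98048983-98049633) lay 10.8 kb from the nearer end, at 72.6 and 72.2 against 53.4 and 70.9. The best site of Uba2 had a peak in replicate 1 of each genotype only. For Sumo3 the site found in most libraries was taken, the wild-type-only site near Itgb2. Its mean list percentile of 27.8 was below the 41.6 of a site with a peak in wild-type replicate 1 only (77627657-77627772). An intronic or exonic position cannot be given from gene spans alone. A site inside Pias1, 8.26 kb from its nearer end and named after its values were seen, had list percentiles of 75.2 and 80.0 in wild type, 12.1 in knockout replicate 2 and no peak in knockout replicate 1.

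The 23 distal sites open in all 4 libraries were counted by class, and the difference between the classes was not tested. Of the 10 at ends of other genes, 5 had lower shared percentiles in both knockout libraries and 0 higher, against 26.9% and 15.3% of regions at gene ends. Of the 13 away from gene ends, 0 were lower and 4 higher, against 23.3% and 29.3%. The lower ones lay at Map2k2, a MAP kinase kinase, and between Dapk3 and Eef2 in the Pias4 window, at Pttg1ip in that of Sumo3, at Jpt1 in that of Sumo2 and at Cln6 in that of Pias1. The Map2k2 site stood out, with shared percentiles of 56.3 and 59.0 in wild type and 7.18 and 21.5 in knockout. Of these 5 sites, 3 are on chromosome 10, the chromosome of Ranbp2, where 49.7% of genes had a lower gene-end site. The higher ones comprised 2 neighbouring sites in the Senp1 window and 1 each in those of Sae1 and Senp2. The calls depended on the scale. On list percentiles 5 of the 10 were lower and 0 higher, but not all were the same sites. Of the 13, 2 were then lower and 1 higher. Shares over all regions on the list scale are not given.

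One deposited differential region fell in the windows. It came from the authors' list enriched in knockout cells and covered a site inside Col2a1, the cartilage collagen gene, 37.4 kb from Senp1 (chromosome 15, 98001315-98001554). The folds there were 5.68 and 5.51 in wild type and 7.045 and 6.005 in knockout, and the shared percentiles were 4.87 and 6.75 against 56.0 and 21.0. The difference was 32.7 points. The site was named for its overlap with the authors' list, which comes from this same series, so its direction is no separate support. The site 0.58 kb away (98001782-98002254) was higher in both knockout libraries on the shared scale (15.9 and 25.6 against 34.2 and 48.9), although its folds overlapped. The site at Col2a1 lies nearer to that gene than to Senp1 and is given here because of the window. The gene-end sites of the 8 genes, those of Uba2 and Sumo3 included, overlapped 0 of the deposited differential regions. The nearest such region to Uba2 lay 170.7 kb away, the nearest to Sumo3 1358 kb and the nearest to Pias4 93.6 kb, and all were enriched in wild type. Chromosome 10, home of Sumo3 and Pias4, held 41 regions enriched in wild type and 3 enriched in knockout.

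The other genes of the pathway were taken from a list of 23. Of these, 17 had a gene-end site in at least 1 library and 12 in all 4, against 9507 and 5802 of all 21887 protein-coding genes. On the list scale 2 were lower in both knockout libraries, Senp5 and Rangap1, and 0 were higher, against the backgrounds of 27.4% and 1.53% given above. List percentiles of Senp5 were 87.45 and 76.79 in wild type and 58.11 and 76.72 in knockout, so replicate 2 of each genotype nearly tied. On the shared scale 4 were lower (27.6% of all genes with such a site) and 1 was higher (14.6%). Senp5, a nucleolar SUMO protease, had shared percentiles of 62.1 and 61.7 in wild type and 48.96 and 49.9 in knockout. On this scale its difference of -12.5 points varied by little, from -13.2 to -11.8 over the 4 pairs. Desi1, a desumoylating enzyme, had 78.1 and 71.2 against 60.2 and 70.4, and Uspl1, another SUMO protease, 82.7 and 82.3 against 81.3 and 79.8. Rangap1, the Ran GTPase activator that is itself a SUMO target and binds Ranbp2, had 98.98 and 98.5 against 96.4 and 97.9, and Desi2, the relative of Desi1, had 95.6 and 93.8 against 97.3 and 98.0. The differences of Uspl1, Rangap1 and Desi2 were all below 3 points.

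Pias3, a ligase that inhibits STAT3, had its gene-end site in both wild-type libraries only, with folds of 7.16 and 9.35. Its list percentiles there were 39.31 and 45.65, and 4.80% of all regions at gene ends had this pattern of presence. The targeted gene Ranbp2 had an open start site in every library, and its shared percentiles overlapped (68.8 and 55.1 against 45.6 and 71.6), which does not check the deletion. Senp6, Senp7, Zfp451, Pml and Sp100 were among the genes with no gene-end site in any library. For Zfp451 a summit nevertheless lay 37 to 53 bp from a listed start in all 4 libraries, inside the span, so a gene without a gene-end site can have an open promoter.

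**Figure D4:**
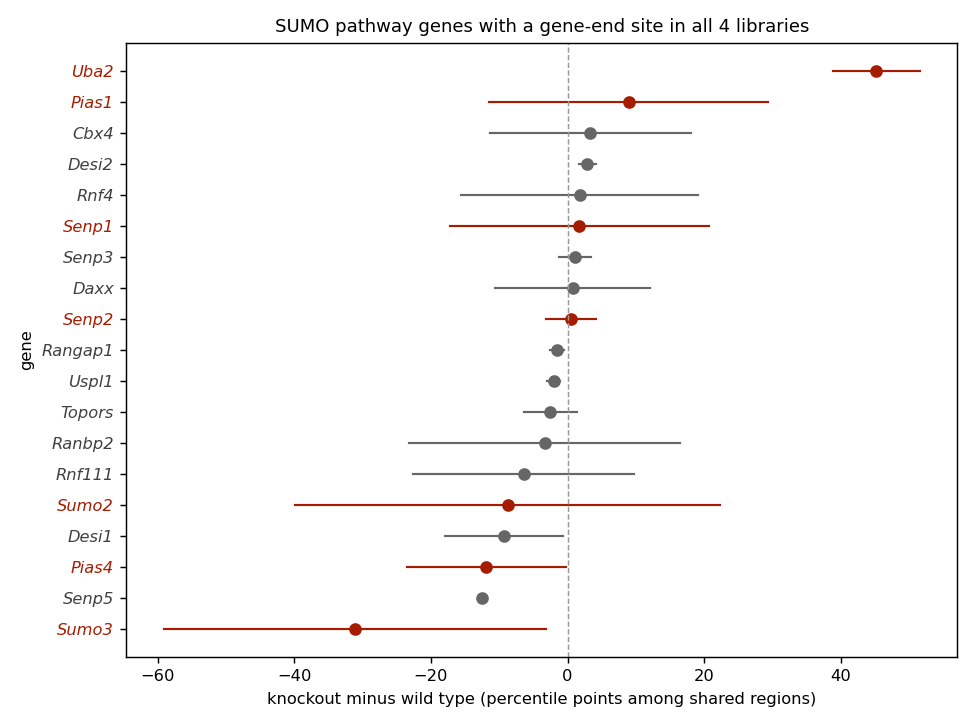
Difference in shared percentile, knockout minus wild type, for the 7 genes (red) and 12 other pathway genes (grey) with a gene-end site in all 4 libraries. Points are differences of means and lines run from the lowest to the highest of the 4 knockout and wild-type pairs; Uba2 lies at 45.2 and Sumo3 at -31.1 points.

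For each gene the protein-coding gene with the most similar gene-end site was found, as the smallest value of the largest difference in list percentile over the 4 libraries. Among 5801 other genes, Tnnt2, cardiac troponin T, was nearest to Uba2 (5.83 points) and Dnajc14, a DnaJ cochaperone on chromosome 10, was nearest to Sumo3 (5.88 points). Neither of these 2 genes had a neighbour within 5 points, and neither did Senp1, whose nearest was Zfp110 (5.46 points, among 5800 genes). Fem1b for Sumo2 (3.75), Rhbdd1 for Pias1 (2.93) and Chac1 for Pias4 (1.48) were closer. Senp2 had 593 genes within 5 points and Pias4 80.

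The markers of the labelled cell type were partly open. Of 12 fibroblast genes, the wild-type libraries had a peak at an end of 9 and 7 and the knockout libraries of 4 and 5, with Col1a2, Fn1, Vim and S100a4 in all 4. Over all protein-coding genes, 26.5% had a gene-end site in all 4 libraries, and the share per library was not counted. The lists also differ in length, so these counts are not read as a difference between the genotypes. Epithelial and endothelial markers (5 and 4 genes) had 0 such peaks in any library, immune markers had 1 of 5 in wild-type replicate 1 and in knockout replicate 2, and neural markers 1 of 5 in wild-type replicate 1.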

How the data were processed

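ATAC-seq peak lists of 4 libraries were used. The submitters' processing notes name mm10 as build. They list MACS2, Bowtie2, cutadapt and deepTools, and also DESeq2 and DiffBind (version 2.2.12), without saying what each did. The authors called peaks in each library separately, per the peak names, and deposited for each peak a score, a fold enrichment (a ratio over local background), and −log10 p and −log10 q values. The authors' 2 lists of differential regions hold positions only, with no threshold stated in them.

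Peaks overlapping by at least 1 bp were joined. Within a region and library the peak of highest −log10 q was used, and percentiles count peaks with lower −log10 q. Gene spans, listed starts and promoters were RefSeq GRCm38.p6. A gene's site was the gene-end region in most libraries, then of highest mean −log10 q. A site was called lower or higher when the ranks of the genotypes did not overlap. Ranks were used because folds and q of separately called lists are not comparable, and the tests on libraries were exact permutation tests (scipy 1.17.1). Region joining and calling were tested on simulated data with evenly spaced peaks, little noise and large shifts. That test checks the code and does not measure how often unshifted sites are called lower or higher. Fold, presence and rank rest on the authors' threshold, so a missing peak may lie just below it.

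The 8 genes, the gene lists and the tests were chosen with earlier results of these data known. The naming rule covered the 8 genes, other pathway genes whose genotypes did not overlap or were present in 1 genotype only, the most similar gene of each, the best-ranked distal site of each gene away from gene ends, and distal sites in 1 genotype only or in a differential region. Some genes that this rule names are not reported here. The shared percentile was added after the data were seen, because list percentiles moved with list length. Alternatives covered list length, threshold, ranking, windows, joining, left-out libraries and a replicate block.

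Deviations of same-numbered libraries from their group means correlated at -0.162 over 10977 regions on list percentiles and at 0.029 on shared percentiles. Library names in the labels carry other numbers than the titles, so the numbers were not taken to pair libraries.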

Additional observations from a re-analysis of the deposited data

How the results depend on the processing

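Sumo3 and Pias4 ranked lower and Uba2 higher in the knockout mean under each of the alternatives run, with differences from -31.1 (shared scale) to -23.0 points for Sumo3, from -25.1 to -2.82 for Pias4 and from 6.25 (without wild-type replicate 2) to 48.0 (equal list lengths) for Uba2. Over the whole lists they were -26.4, -14.0 and 24.0. Non-overlap was less stable: with −log10 q of at least 5, 0 genes were higher in both knockout libraries, and on percentiles within the chromosome 1 was lower. Leaving out 1 library at a time gave 3 to 5 genes lower (5 without wild-type replicate 2, 4 without knockout replicate 2) and 1 to 3 higher (3 without wild-type replicate 1). It gave 5 to 18 distal sites present only in wild type (18 without wild-type replicate 2, 14 without knockout replicate 2) and 0 to 6 only in knockout (6 without knockout replicate 1). In these counts 1 library stands for a genotype, so fewer libraries have to differ. With equal list lengths 1 distal site was present only in knockout, again without a share over all regions. Windows of 20 and 100 kb held 11 and 35 distal sites open in all 4 libraries and 0 and 2 differential regions. The median difference over the 7 sites changed sign on the shared scale (0.48 points), within the spread of 15.8 points between replicates. As a replicate block, 3 genes were lower and 1 higher in both same-numbered pairs. Crossed numbers, added after the data were seen, gave 3 and 1. The shares of all genes with these 2 patterns are not given either. In all, 73 alternative values of counts and medians stayed close to the reported value (within the replicate SD, or a like margin for counts) and 13 did not. For single genes these were 77 and 6, but a value could stay close and still change sign. The replicate SD was 34.9 points for Sumo2, 26.3 for Senp1 and 12.75 for Pias1. Their differences ran from -50.9 to 10.6, from -32.3 to 20.2 and from -12.55 to 12.58 points, with 0 values counted as moved. Without read counts, what depth limits cannot be given.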
